A study of Mus musculus with 18 samples.

Results

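The mitosis genes described here are 32 protein-coding mouse genes that act in late G2 phase and in mitosis. They were chosen by name for their known roles, with earlier results of these data already known. All 32 were found by symbol among the 35727 gene IDs of the deposited table, and all 32 were among the 14864 genes that passed the filter on low counts.

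Messenger RNA was sequenced in 18 libraries of cultured mouse cells of lung and heart, at day 7, in 6 groups of 3. The groups were lung iECs, lung ECs (native endothelial cells), lung control fibroblasts, heart iECs, heart ECs and heart control fibroblasts. All were grown in EGM2 (an endothelial growth medium), and the series asks how far iECs take on the endothelial traits of their organ. iEC commonly means an induced endothelial cell, that is, a cell of another type turned towards the endothelial fate. The labels do not spell the term out, and the titles of the iEC libraries read SEG, which is not explained. Strain, genotype, the agent used for induction, the control given to the fibroblasts and the way the native ECs were isolated are not given in the labels. The labels do not say what a replicate is (culture, animal or library), and the p-values therefore reflect only how far these libraries scatter, which may be technical.

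Library totals ranged from 17747632 to 23775372 estimated counts, of which the 32 mitosis genes took between 1482 and 19622. Levels are given in CPM, the usual count scaled for depth, here with TMM-scaled library sizes. The 12 endothelial markers summed to between 2431.8 and 2890.8 CPM in lung iECs, 2881.3 and 2952.8 in lung ECs and 25.1 and 29.4 in lung fibroblasts. The same sums lay between 2639.9 and 2840.7 CPM in heart iECs, 1819.7 and 2001.5 in heart ECs and 264.6 and 294.3 in heart fibroblasts. Single markers moved in both directions. At an edgeR adjusted p under 0.05, heart iECs exceeded heart ECs for 3 of the 12 markers and fell short for 6. Lung iECs exceeded lung ECs for 3 and fell short for 9. Against heart fibroblasts, 9 markers rose in heart iECs and 1 fell. Erg and Sox17 averaged 1024 and 466.1 CPM in heart iECs, against 51.5 and 6.81 CPM in heart ECs. The higher sum in heart iECs than in heart ECs therefore rests on Erg and Sox17. The endothelial adhesion gene Pecam1 averaged 7.13 CPM in lung iECs, against 562.1 CPM in lung ECs, while Cdh5, which encodes VE-cadherin, averaged 465.1 CPM in lung iECs and 999.3 CPM in lung ECs. Fibroblast markers were present in every group, with the sum of 10 markers averaging 13386 CPM in lung iECs, 6371 in lung ECs, 40008 in lung fibroblasts, 18569 in heart iECs, 20863 in heart ECs and 30406 in heart fibroblasts.

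Entry into mitosis is driven by cyclin-dependent kinase 1 with cyclins A and B, together with Polo-like and Aurora kinases. Kinetochores then attach chromosomes to the spindle, the spindle checkpoint holds back the anaphase-promoting complex (APC/C) until all are attached, and the APC/C with its activator Cdc20 destroys cyclin B and opens the way to anaphase and cytokinesis. Most of the genes are transcribed in late S and G2 phase and shut off in G1 and in quiescence, so that their RNA is widely used as a measure of how many cells of a population are dividing. In bulk RNA a smaller number of dividing cells and less RNA per dividing cell cannot be told apart.

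Heart fibroblasts stood apart from every other group. The 32 genes summed to 382, 361 and 364.5 CPM in heart iECs, 565, 587 and 617 CPM in heart ECs and 87.2, 99.0 and 89.7 CPM in heart fibroblasts, the last below every other library. In the lung the sums were 826, 805 and 620 CPM in iECs, 731, 657 and 818 CPM in ECs and 683, 642 and 668 CPM in fibroblasts. The 3 lung groups overlapped in these TMM-scaled sums, whereas the 3 heart groups did not, and every lung library was above every heart library. On unscaled library totals the sums were 672.6 to 911.8 CPM in lung iECs and 677.4 to 908.9 CPM in lung ECs. Both lay above the 629.6 to 672.2 CPM of lung fibroblasts. Heart fibroblasts had the lowest group mean for all 32 genes, and for 31 of them each of the 3 heart fibroblast libraries was below the other 15 libraries, which held for 8.06% of all genes tested. The exception was Bub1b. The highest group mean was that of lung iECs for 13 genes, lung ECs for 12, lung fibroblasts for 6 and heart ECs for 1, Cdk1.

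**Figure D1:**
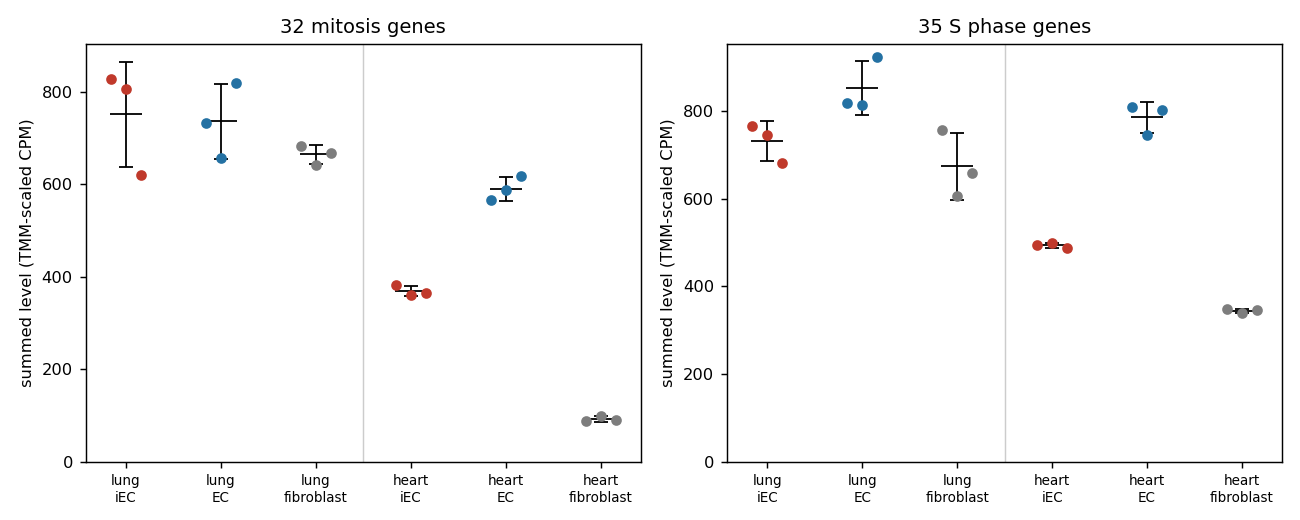
Summed level of the 32 mitosis genes (left) and of 35 S phase genes (right) in TMM-scaled CPM, with a point for each library and the mean ± SD of 3 libraries for each group. The mitosis sum averages 369 to 750.5 CPM in the iEC, EC and lung fibroblast groups and 92.0 CPM in heart fibroblasts, while the S phase sum averages 494 to 852 CPM in those groups and 345 CPM in heart fibroblasts.

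**Figure D2:**
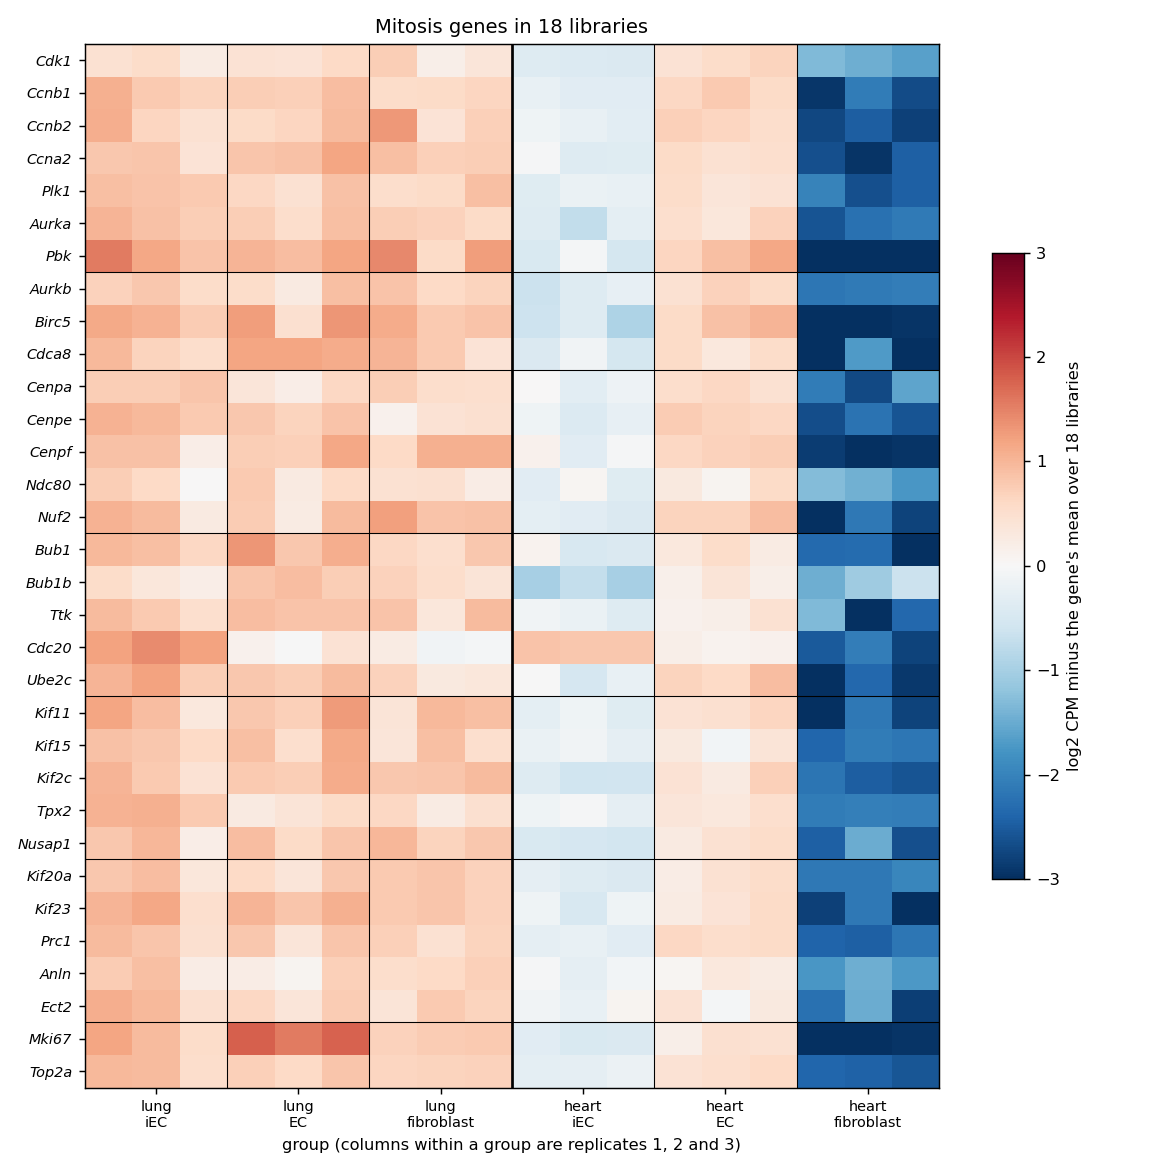
Level of each mitosis gene in each of 18 libraries, as log2 CPM minus the mean of that gene over the libraries, with genes grouped by role and colours that saturate at 3 in either direction. The 3 heart fibroblast columns are blue (low) for every gene, Bub1b is among the genes that are also low in heart iECs, Cdc20 is high in iECs of both organs and Mki67 is high in lung ECs.

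The sum was also set against that of 35 genes of S phase (DNA replication and nucleotide supply). The ratio of the mitosis sum to the S phase sum was 1.02 ± 0.0967 in lung iECs, 0.862 ± 0.0487 in lung ECs and 0.9925 ± 0.0796 in lung fibroblasts (SD, n = 3 each). In the heart it was 0.747 ± 0.0244 in iECs, 0.751 ± 0.0466 in ECs and 0.267 ± 0.0218 in fibroblasts (SD, n = 3 each). Heart iECs and heart ECs did not overlap in either sum but overlapped in this ratio.

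Heart iECs had higher levels than heart fibroblasts of 31 of the 32 genes, at an adjusted p under 0.05 in edgeR's quasi-likelihood test over all genes, and lower levels of none. Over all genes tested in this comparison, 26.0% were higher and 24.6% lower. The median log2 change of the 32 genes was 2.11, beside 0.02 for all genes. Heart ECs had higher levels than heart fibroblasts of all 32, with a median of 2.89, where the background was 24.2% higher and 23.3% lower. These comparisons share the heart fibroblast libraries. The lowest change in heart ECs was 1.26 ± 0.166 for Bub1b and the highest 4.76 ± 0.325 for Pbk, a mitotic kinase. Its 3 heart fibroblast libraries had 0.261, 0.263 and 0.423 CPM. Mesothelial markers moved with these comparisons: 10 of 10 were higher in heart ECs than in heart fibroblasts, with sums of 436.5 to 637.1 CPM in heart ECs and 60.2 to 81.0 CPM in heart fibroblasts, and in heart iECs 2 rose and 8 fell against heart fibroblasts, with sums of 107.4 to 120.4 CPM in heart iECs. Contractile markers moved as well: 6 of 7 were higher in heart iECs and 5 of 7 in heart ECs than in heart fibroblasts, with sums of 1154.4 to 1343.3 CPM in heart iECs, 301.2 to 418.4 CPM in heart ECs and 213.5 to 243.4 CPM in heart fibroblasts. Macrophage and leukocyte markers moved in both directions, with 5 of 16 higher and 2 lower in heart iECs and 4 higher and 5 lower in heart ECs. Of 5 epithelial markers tested, 2 were higher in heart ECs. Fibroblast markers were lower than in heart fibroblasts for 9 of 10 in heart iECs and 8 of 10 in heart ECs. They still summed to 17958 to 19529 CPM in heart iECs and 20301 to 21235 CPM in heart ECs, beside 29661 to 31023 CPM in heart fibroblasts. The part of these markers in the result was not tested.

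In the lung the corresponding differences were few. Lung iECs had higher levels than lung fibroblasts of 4 of the 32 genes and lower levels of none (background 25.9% higher and 24.7% lower), with a median log2 change of 0.09. The 4 were Cdc20, Cenpe, Ube2c and Tpx2. Without lung iEC replicate 3, which was the lowest of its 3 libraries for 31 of the 32 genes, 7 genes were higher, with Ccnb1, Mki67 and Top2a added. The 16 macrophage and leukocyte markers were all higher in lung iECs than in lung fibroblasts too, with sums of 3226.6 to 4608.3 CPM in lung iECs and 1357.4 to 1720.2 CPM in lung fibroblasts. Contractile markers were higher for 6 of 7 and lower for 1, with sums of 3180.0 to 3882.5 CPM in lung iECs and 884.0 to 1235.8 CPM in lung fibroblasts. Mesothelial markers were lower for 8 of 10, with sums of 46.9 to 64.5 CPM in lung iECs and 318.3 to 339.8 CPM in lung fibroblasts. The part of these markers was not tested. Lung ECs had higher levels than lung fibroblasts of 3 genes, Mki67, Cenpe and Ube2c, and lower levels of none (background 29.3% higher and 28.7% lower), with a median of 0.07. Without heart fibroblast replicate 3, which belongs to neither group compared, and likewise with DESeq2, that count was 5, since Bub1 and Bub1b passed as well. Anln was lower, as 1 gene, without lung EC replicate 3. Both shares of higher genes in the lung are below the background. Where 0 mitosis genes were called in a direction, in these and the later comparisons, 0 also had an unadjusted p under 0.05 in edgeR and 0 were called by DESeq2.

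**Figure D3:**
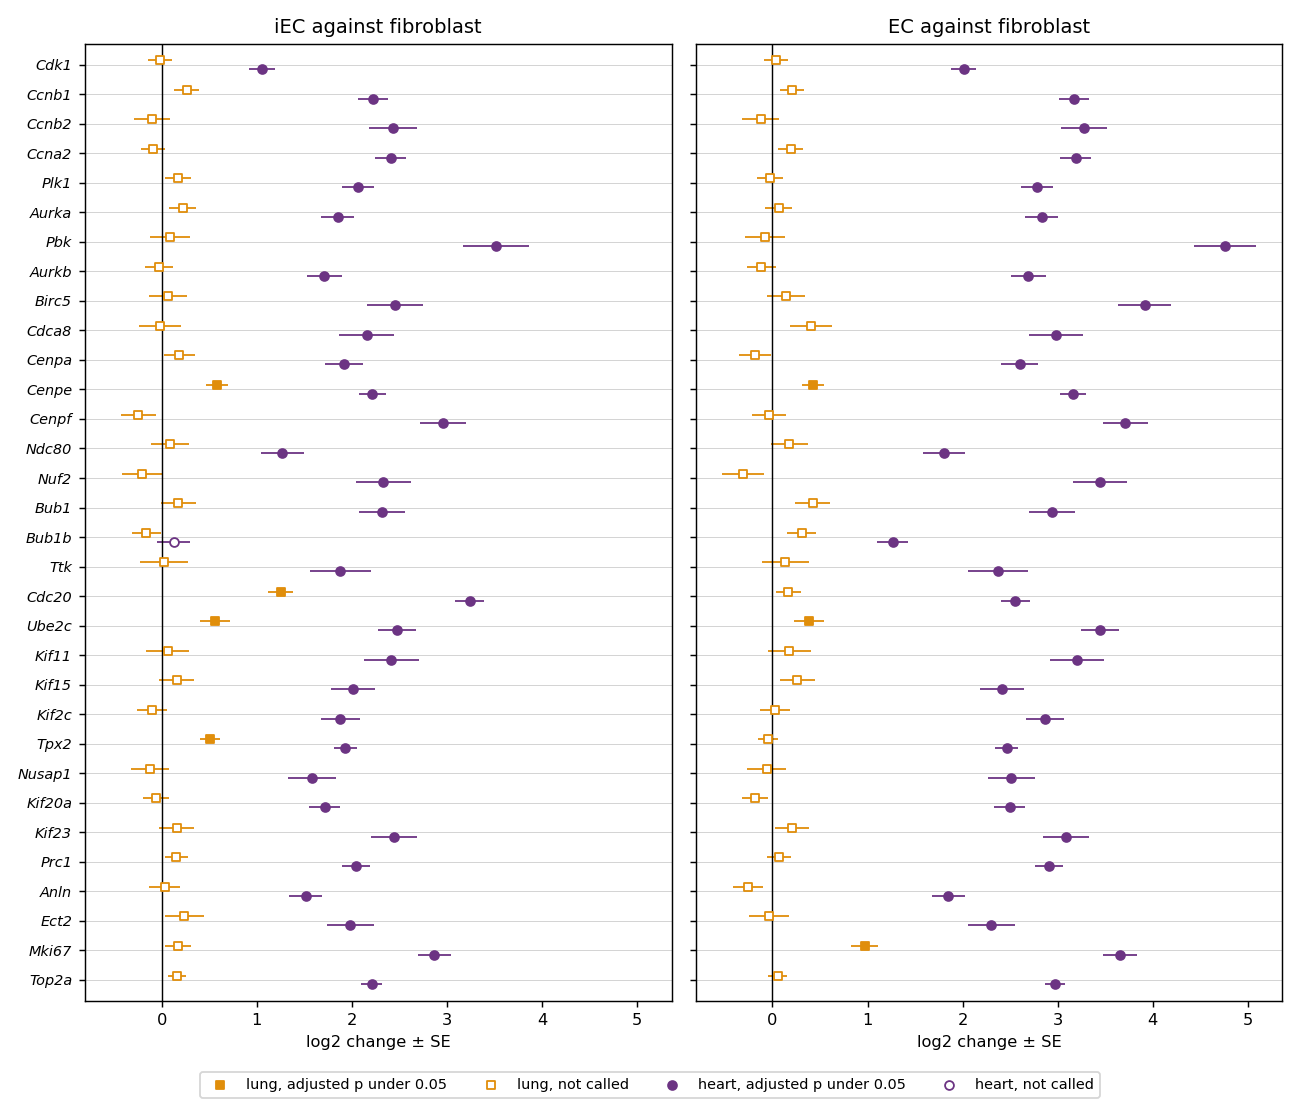
Log2 change ± SE of each mitosis gene in iECs against fibroblasts (left) and in ECs against fibroblasts (right), with lung as squares and heart as circles, filled where the adjusted p is under 0.05. Heart values lie between 0.13 and 4.76 and lung values between -0.31 and 1.25, and the lung and heart values of Bub1b in the left panel are the closest pair.

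The difference between organs was tested directly. The iEC to fibroblast change was smaller in lung than in heart for 31 of 32 genes and larger for none (background 12.6% smaller and 12.6% larger), by a median of -1.90 on the log2 scale. The EC to fibroblast change was smaller in lung for all 32 (background 18.3% smaller and 16.2% larger), by a median of -2.77. Both tests use the same fibroblast libraries of both organs. The fibroblasts themselves differed: lung fibroblasts had higher levels than heart fibroblasts of all 32 genes (background 24.6% higher and 23.9% lower), with a median of 2.99 and a range of 1.55 ± 0.165 for Bub1b to 4.98 ± 0.323 for Pbk. Of the macrophage and leukocyte markers 15 of 16, and of the mesothelial markers 10 of 10, were also higher in lung fibroblasts than in heart fibroblasts. So were 6 of 7 contractile markers, which averaged a sum of 1022.3 CPM in lung fibroblasts and 228.6 CPM in heart fibroblasts, and 2 of 5 epithelial markers tested. Endothelial markers were lower for 11 of 12, with mean sums of 27.9 CPM in lung fibroblasts and 275.8 CPM in heart fibroblasts. The part of these markers in the result was not tested.

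Lung iECs had higher levels than heart iECs of all 32 genes (background 18.9% higher and 18.9% lower), with a median of 1.09, a lowest change of 0.46 ± 0.125 for Cdc20 and a highest of 1.61 ± 0.213 for Birc5. All lung iEC libraries were above all heart iEC libraries for 31 of the 32, the exception being Ndc80, and for 25.7% of all genes tested. Lung ECs exceeded heart ECs for 8 genes (background 24.2% higher and 23.7% lower), with a median of 0.20. That count is near the background share, and 0 genes were lower. The 8 genes were Mki67, Bub1, Cdca8, Kif15, Bub1b, Kif23, Ccna2 and Kif2c. The change in Mki67 was 1.34 ± 0.141 (edgeR adjusted p = 3.83e-07), and the other 7 lay between 0.41 and 0.70. Macrophage and leukocyte markers moved with organ: 16 of 16 were higher in lung iECs than in heart iECs and 15 of 16 in lung ECs than in heart ECs. The 16 markers summed to 3226.6 to 4608.3 CPM in lung iECs and 9371.1 to 11286 CPM in lung ECs, against 372.9 to 431.8 CPM in heart iECs and 351.0 to 462.7 CPM in heart ECs, with no marker at 0 in any group. Contractile markers were higher for 5 of 7 in lung iECs and 6 of 7 in lung ECs than in the heart groups, and epithelial markers for 3 of 5 in lung iECs and 5 of 5 in lung ECs. Mesothelial markers were higher for 5 of 10 and lower for 1 in lung iECs, and higher for 2 and lower for 5 in lung ECs. The part of these markers in the organ differences was not tested.

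Heart iECs fell below heart ECs for 27 of the 32 genes and were above them for 1, Cdc20 (background 24.4% lower and 24.5% higher), with a median log2 change of -0.79. Ttk, Kif15, Anln and Ect2 were not called. Mesothelial markers were also lower in heart iECs than in heart ECs for 8 of 10 and higher for 1, and contractile markers were higher for 4 of 7 and lower for 1. Macrophage and leukocyte markers were higher for 7 of 16 and lower for 3. Fibroblast markers were lower for 5 of 10 and higher for 1, and endothelial markers were lower for 6 of 12 and higher for 3. The part of these markers was not tested. Lung iECs and lung ECs differed for few genes: 2 were higher, Cdc20 and Tpx2, and 2 lower, Mki67 and Bub1b (background 22.2% higher and 23.0% lower), with a median of 0.04. These lung counts turned on single libraries. Without lung iEC replicate 3 they were 4 higher and 1 lower, without lung EC replicate 3 they were 4 higher, and without lung EC replicate 2 they were 1 lower. Lung EC replicate 2 was the lowest of its 3 libraries for 26 genes and lung EC replicate 3 the highest for 25. Macrophage and leukocyte markers were lower in lung iECs than in lung ECs for 15 of 16, mesothelial markers for 8 of 10 and epithelial markers for 5 of 5 tested. Contractile markers were higher for 5 of 7 and lower for 1, and fibroblast markers higher for 6 of 10 and lower for 3. The part of these markers was not tested.

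The promoters of genes that peak in G2 and mitosis commonly carry a cell cycle genes homology region, or CHR, near the start of transcription. In human and mouse cells it is bound by the MuvB core, which works with repressors in quiescence and with B-Myb and FoxM1 in G2, and it often lies downstream of CCAAT boxes bound by NF-Y. The letters of these motifs were searched for in RefSeq promoters of build GRCm38.p6, which run from 250 bases before to 50 bases after the transcription start. Of the 32 genes 27 had an entry, and Ccna2, Pbk, Aurkb, Tpx2 and Kif20a had none. TTTGAA, the usual CHR, was found on either strand in 21 of 27 (77.8%), beside 20.2% of 27025 genes in the table. TTCGAA, its variant, which reads the same on both strands, was found in 3 (11.1%, beside 1.8%), and CCAAT in 20 (74.1%, beside 41.1%). In a window chosen after these matches were seen, within 50 bases of the start, TTTGAA or TTCGAA was found in 20 of 27 (74.1%, beside 6.12% of genes), and 17 of 27 (63%, beside 2.57%) also held CCAAT anywhere in the promoter. At least 2 CCAAT matches, likewise chosen afterwards, were found in 14 (51.9%, beside 13.3%). Birc5, Nuf2 and Nusap1 held none of the 3 motifs in the whole promoter, and each of these genes was higher in heart iECs than in heart fibroblasts. The part of the motifs in the changes of level was not tested. A match is a match of letters and was not measured as a bound site.

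The promoters of 5 genes are shown. Cdc20, Mki67 and Bub1b are among those whose levels departed from the other mitosis genes in at least 1 comparison. Tpx2, which departed as well, had no promoter entry. Ccnb2 and Top2a are given as examples of genes that moved with the rest. They hold several matches each and do not stand for all such genes, since Birc5, Nuf2 and Nusap1 hold none. Each promoter is written on the strand of its gene, in lower case. Capitals mark each match to a motif on either strand, whether the usual CHR, its variant or the NF-Y box. Ccnb2 lies at chr9:70421505-70421804 and Top2a at chr11:99024140-99024439, both on the minus strand. Cdc20 lies at chr4:118437294-118437593 and Mki67 at chr7:135716330-135716629, both on the minus strand, and Bub1b at chr2:118597961-118598260 on the plus strand.
Ccnb2: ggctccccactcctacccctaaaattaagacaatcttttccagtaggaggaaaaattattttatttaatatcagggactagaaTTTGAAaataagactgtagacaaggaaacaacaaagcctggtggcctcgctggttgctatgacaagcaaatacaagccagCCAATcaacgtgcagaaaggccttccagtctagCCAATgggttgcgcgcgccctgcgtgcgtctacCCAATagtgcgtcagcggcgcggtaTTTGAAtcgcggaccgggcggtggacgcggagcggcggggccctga
Top2a: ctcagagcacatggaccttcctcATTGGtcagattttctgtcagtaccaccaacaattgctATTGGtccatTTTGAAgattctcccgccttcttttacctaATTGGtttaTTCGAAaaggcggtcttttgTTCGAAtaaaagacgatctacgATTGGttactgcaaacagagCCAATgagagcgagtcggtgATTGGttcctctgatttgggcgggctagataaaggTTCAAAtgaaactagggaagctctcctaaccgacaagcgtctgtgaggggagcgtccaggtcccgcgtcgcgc
Cdc20: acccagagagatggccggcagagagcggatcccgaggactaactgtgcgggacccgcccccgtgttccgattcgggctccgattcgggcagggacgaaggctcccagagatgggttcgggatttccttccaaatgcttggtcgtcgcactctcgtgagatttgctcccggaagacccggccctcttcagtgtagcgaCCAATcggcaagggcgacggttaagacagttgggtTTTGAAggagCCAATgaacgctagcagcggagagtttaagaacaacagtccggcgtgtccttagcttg
Mki67: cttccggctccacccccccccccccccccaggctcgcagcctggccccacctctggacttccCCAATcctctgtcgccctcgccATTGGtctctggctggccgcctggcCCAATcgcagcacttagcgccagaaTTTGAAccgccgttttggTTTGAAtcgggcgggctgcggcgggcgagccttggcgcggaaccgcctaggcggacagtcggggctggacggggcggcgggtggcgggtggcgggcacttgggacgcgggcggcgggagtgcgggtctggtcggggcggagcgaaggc
Bub1b: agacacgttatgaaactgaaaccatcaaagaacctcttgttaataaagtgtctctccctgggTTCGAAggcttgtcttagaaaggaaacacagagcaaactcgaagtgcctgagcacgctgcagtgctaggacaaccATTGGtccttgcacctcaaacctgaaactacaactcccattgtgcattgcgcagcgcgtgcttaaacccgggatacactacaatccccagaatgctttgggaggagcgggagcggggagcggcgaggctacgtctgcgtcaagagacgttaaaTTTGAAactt
Ccnb2 has TTTGAA at -167 and at 5, with 3 CCAAT matches at -87, -54 and -21 between them. Top2a has TTTGAA at -179 and, on the opposite strand, at -23, TTCGAA at -140 and -120, and 6 CCAAT matches between -227 and -58. Cdc20 has 1 TTTGAA, at -18, between CCAAT matches at -53 and -8. Mki67 has TTTGAA at -116 and -98 and no CHR match within 50 bases of the start, with 3 CCAAT matches between -188 and -141. Bub1b has TTTGAA at 41, TTCGAA at -188 and 1 CCAAT match at -113.

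**Figure D4:**
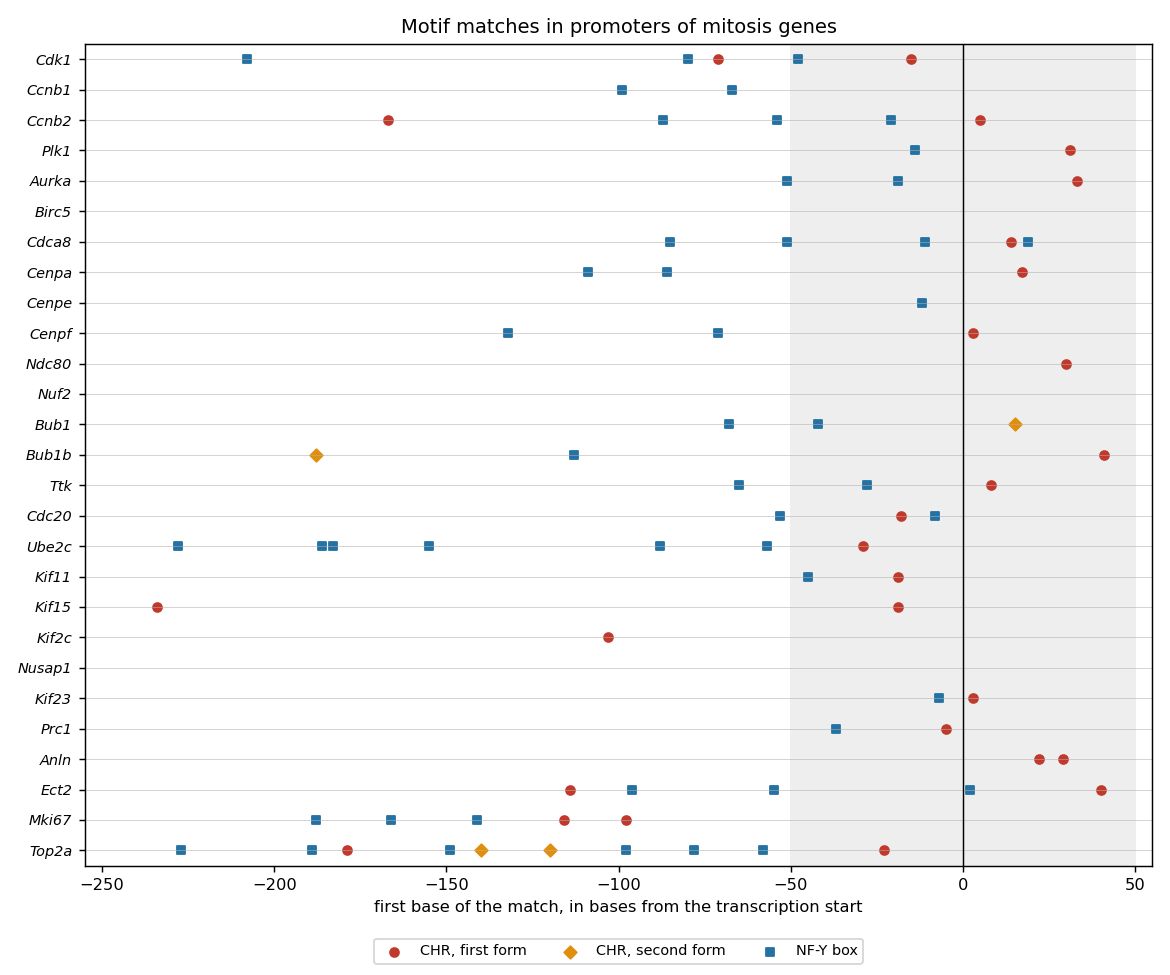
Position of motif matches in the promoters of 27 mitosis genes, as the first base of each match relative to the transcription start, with the 2 forms of the CHR and the NF-Y box as separate symbols and the 50 bases on either side of the start shaded. For 20 genes a CHR match lies in the shaded window, and rows without symbols are genes in which no motif was found.

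Among the kinases and cyclins that start mitosis, Cdk1, the mitotic kinase itself, stood at 27.7, 29.8 and 24.2 CPM in lung iECs, 27.5, 26.8 and 30.6 CPM in lung ECs and 33.96, 22.997 and 25.9 CPM in lung fibroblasts. In the heart it stood at 15.6, 15.2 and 15.02 CPM in heart iECs, 27.4, 29.5 and 32.2 CPM in heart ECs and 8.15, 7.37 and 6.53 CPM in heart fibroblasts. The lung groups overlapped, and in the heart the 3 groups were apart, with iECs between ECs and fibroblasts. The change in heart iECs against heart fibroblasts was 1.05 ± 0.135 (edgeR adjusted p = 3.12e-06), the smallest of the 31 called. Ccna2, which encodes cyclin A2, showed 25.6, 25.9 and 19.4 CPM in lung iECs, 26.03, 26.8 and 33.5 CPM in lung ECs and 27.3, 23.8 and 24.5 CPM in lung fibroblasts, and 14.2, 11.1 and 11.3 CPM in heart iECs, 21.7, 20.2 and 20.9 CPM in heart ECs and 2.35, 1.90 and 2.66 CPM in heart fibroblasts. Its heart iEC change over fibroblasts was 2.41 ± 0.165 (edgeR adjusted p = 7.87e-10) and that in lung iECs -0.09 ± 0.130 (edgeR adjusted p = 0.588). The B cyclins Ccnb1 and Ccnb2, the Polo-like kinase Plk1, the Aurora kinase Aurka and Pbk rose in heart iECs against heart fibroblasts by 1.85 to 3.51, and 0 of the 7 genes of this role were called in either lung comparison with fibroblasts. All 7 were lower in heart iECs than in heart ECs, with log2 changes of -1.24 to -0.71.

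The chromosomal passenger complex corrects faulty attachments and guides cytokinesis. Its member Cdca8, which encodes borealin, had 13.1, 10.7 and 9.60 CPM in lung iECs, 15.3, 15.2 and 14.4 CPM in lung ECs and 13.5, 11.5 and 8.89 CPM in lung fibroblasts. In heart cells Cdca8 had 4.97, 6.26 and 4.62 CPM in heart iECs, 9.95, 8.40 and 9.77 CPM in heart ECs and 0.835, 2.05 and 0.605 CPM in heart fibroblasts. Aurkb, its kinase, had 10.6, 11.6 and 9.75 CPM in lung iECs, 9.68, 7.91 and 12.4 CPM in lung ECs and 11.97, 10.1 and 10.6 CPM in lung fibroblasts, and 4.26, 5.09 and 5.61 CPM in heart iECs, 9.01, 10.7 and 9.77 CPM in heart ECs and 1.46, 1.53 and 1.57 CPM in heart fibroblasts. Lung iEC and lung fibroblast libraries overlapped for both genes, and the heart fibroblast libraries were the lowest. In heart iECs against heart fibroblasts Cdca8 changed by 2.16 ± 0.289 (edgeR adjusted p = 5.50e-06), Aurkb by 1.71 ± 0.187 (edgeR adjusted p = 4.15e-07) and Birc5, which encodes survivin, by 2.46 ± 0.292 (edgeR adjusted p = 1.21e-06). Birc5 showed the largest fall of all 32 genes in heart iECs against heart ECs, at -1.46 ± 0.214 (edgeR adjusted p = 1.82e-05).

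At the centromere and kinetochore, Cenpe, a kinesin that moves chromosomes to the spindle equator, was higher in iECs than in fibroblasts of both organs. It had 29.8, 28.4 and 24.9 CPM in lung iECs, 25.5, 22.9 and 26.1 CPM in lung ECs and 15.8, 19.6 and 20.1 CPM in lung fibroblasts. The lung iEC and EC libraries overlapped each other and lay above all lung fibroblast libraries. In the heart the values were 13.3, 10.9 and 12.3 CPM in heart iECs, 24.7, 22.95 and 22.4 CPM in heart ECs and 2.30, 3.11 and 2.42 CPM in heart fibroblasts. Cenpe changed by 0.58 ± 0.115 (edgeR adjusted p = 3.55e-04) in lung iECs and by 2.22 ± 0.141 (edgeR adjusted p = 2.92e-10) in heart iECs against fibroblasts. Cenpf, a large kinetochore protein that builds up in G2, had 18.7, 18.5 and 11.6 CPM in lung iECs, 16.8, 16.7 and 22.8 CPM in lung ECs and 15.4, 21.3 and 21.1 CPM in lung fibroblasts. In heart cells Cenpf had 11.2, 8.05 and 9.93 CPM in heart iECs, 15.7, 16.5 and 16.9 CPM in heart ECs and 1.41, 1.0003 and 1.33 CPM in heart fibroblasts. Lung groups overlapped for Cenpf, and its change in heart iECs against fibroblasts, 2.96 ± 0.240 (edgeR adjusted p = 8.19e-09), was exceeded only by those of Pbk and Cdc20 among the 32 genes. The centromeric histone Cenpa and the Ndc80 complex genes Ndc80 and Nuf2 rose in heart iECs by 1.27 to 2.33 over fibroblasts and were not called in lung iECs.

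The spindle checkpoint and APC/C group held Cdc20 and Bub1b, which departed from the common pattern. Cdc20, the APC/C activator at chr4:118432901-118437352 (GRCm38), had 42.3, 48.3 and 42.02 CPM in lung iECs, 20.05, 18.1 and 24.5 CPM in lung ECs and 21.5, 16.8 and 17.5 CPM in lung fibroblasts. In heart cells Cdc20 had 32.9, 31.8 and 31.9 CPM in heart iECs, 20.6, 19.5 and 19.99 CPM in heart ECs and 3.18, 4.32 and 2.66 CPM in heart fibroblasts. In each organ all iEC libraries were above all EC and fibroblast libraries. Against fibroblasts Cdc20 changed by 1.25 ± 0.129 (edgeR adjusted p = 2.09e-07) in lung iECs and by 3.24 ± 0.152 (edgeR adjusted p = 4.30e-12) in heart iECs. Against ECs it changed by 1.08 ± 0.127 (edgeR adjusted p = 1.55e-06) in lung iECs and by 0.69 ± 0.128 (edgeR adjusted p = 2.24e-04) in heart iECs, where 27 of the other 31 genes fell. As a share of the summed level of the 32 genes, Cdc20 took 5.97% in lung iECs, 2.83% in lung ECs, 2.80% in lung fibroblasts, 8.74% in heart iECs, 3.40% in heart ECs and 3.66% in heart fibroblasts.

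Ube2c, the ubiquitin-conjugating enzyme that works with the APC/C, had 21.96, 25.01 and 17.9 CPM in lung iECs, 18.9, 17.8 and 20.8 CPM in lung ECs and 17.3, 13.1 and 13.6 CPM in lung fibroblasts. In heart cells Ube2c had 10.7, 7.63 and 9.15 CPM in heart iECs, 17.2, 16.4 and 20.3 CPM in heart ECs and 1.36, 2.11 and 1.45 CPM in heart fibroblasts. The lung iEC libraries were above the lung fibroblast libraries and overlapped lung ECs. Its change against fibroblasts was 0.56 ± 0.156 (edgeR adjusted p = 0.00571) in lung iECs, 0.39 ± 0.156 (edgeR adjusted p = 0.0414) in lung ECs and 2.47 ± 0.200 (edgeR adjusted p = 7.82e-09) in heart iECs. The call in lung ECs was lost under 8 of the alternatives tried.

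Bub1b, the checkpoint kinase-like protein BubR1, at chr2:118598211-118641591, was the only one of the 32 genes not higher in heart iECs than in heart fibroblasts. It had 17.5, 15.3 and 13.7 CPM in lung iECs, 21.3, 22.95 and 20.1 CPM in lung ECs and 19.2, 17.2 and 15.6 CPM in lung fibroblasts. In heart cells Bub1b had 5.99, 7.30 and 6.04 CPM in heart iECs, 13.3, 15.7 and 13.7 CPM in heart ECs and 4.33, 5.74 and 7.74 CPM in heart fibroblasts. Heart iEC and heart fibroblast libraries overlapped, with a log2 change of 0.13 ± 0.170 (edgeR adjusted p = 0.567), while heart ECs were above both, by 1.26 ± 0.166 (edgeR adjusted p = 6.10e-06) over fibroblasts. Against ECs, Bub1b changed by -0.47 ± 0.152 (edgeR adjusted p = 0.0173) in lung iECs and in heart iECs by -1.14 ± 0.161 (edgeR adjusted p = 1.18e-05). The call in lung was lost without lung EC replicate 2 and without lung iEC replicate 3, with edgeR adjusted p values of 0.0647 to 0.0704. The partner kinases Bub1 and Ttk rose in heart iECs over heart fibroblasts, by 2.32 ± 0.244 and 1.88 ± 0.319, and were not called in lung iECs.

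**Figure D5:**
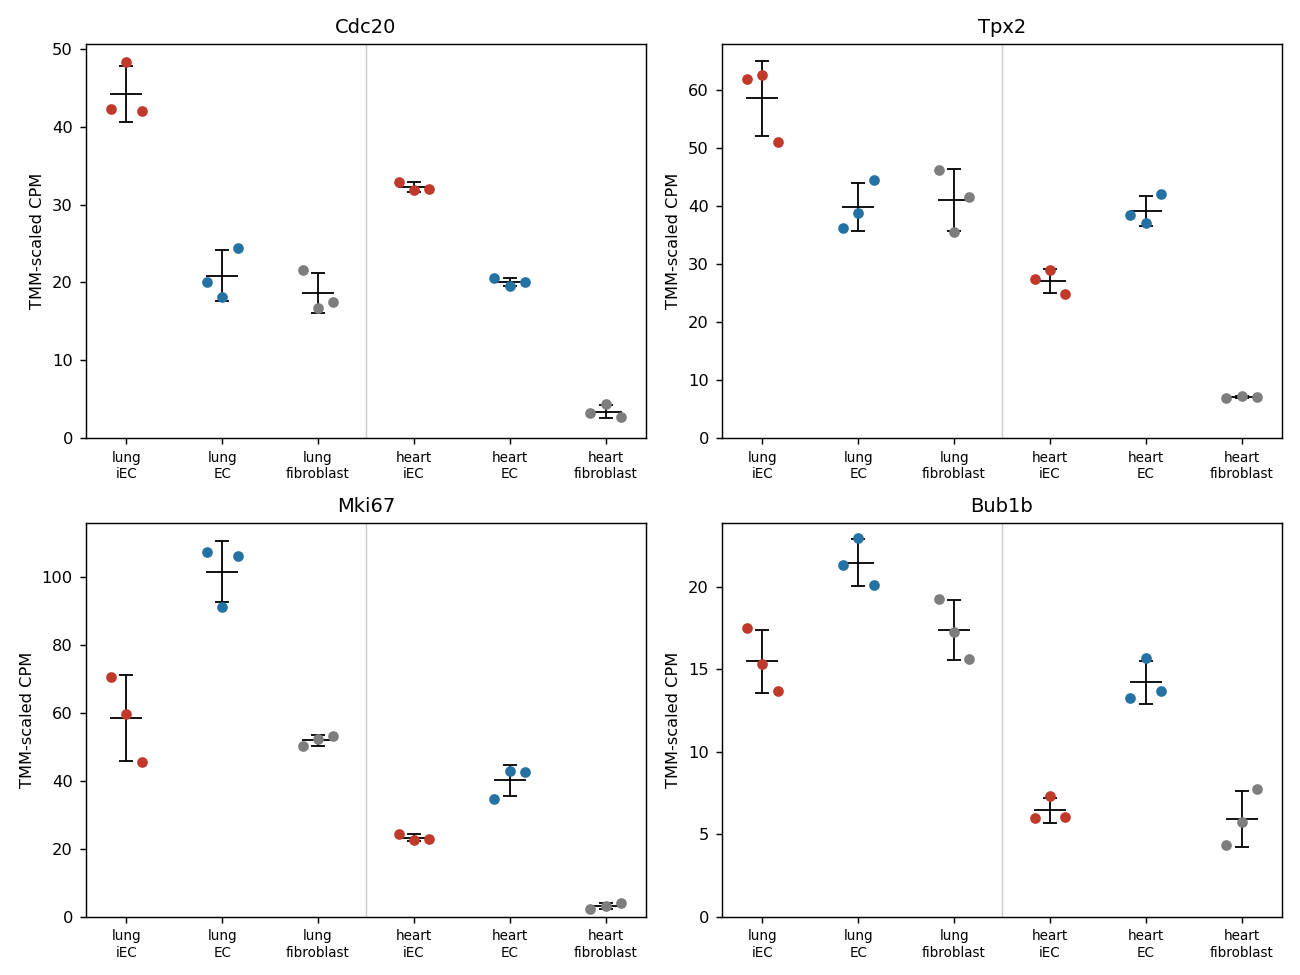
TMM-scaled CPM of Cdc20, Tpx2, Mki67 and Bub1b in each library of the 6 groups, with the mean ± SD of 3 libraries. Cdc20 is highest in iECs of each organ, Tpx2 in lung iECs and Mki67 in lung ECs, and Bub1b overlaps between heart iECs and heart fibroblasts.

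Among motors and factors that build the spindle, Tpx2, which activates Aurora A on the spindle, had 61.9, 62.7 and 51.1 CPM in lung iECs, 36.2, 38.9 and 44.4 CPM in lung ECs and 46.2, 35.5 and 41.6 CPM in lung fibroblasts. In heart cells Tpx2 had 27.4, 28.99 and 24.9 CPM in heart iECs, 38.5, 37.01 and 42.1 CPM in heart ECs and 6.94, 7.21 and 7.14 CPM in heart fibroblasts. All lung iEC libraries lay above the other lung libraries, whereas heart iECs lay between heart ECs and heart fibroblasts. Against ECs Tpx2 changed by 0.56 ± 0.104 (edgeR adjusted p = 2.71e-04) in lung iECs and by -0.53 ± 0.106 (edgeR adjusted p = 4.28e-04) in heart iECs. Kif11, the kinesin that pushes spindle poles apart, had 22.4, 18.8 and 12.4 CPM in lung iECs, 17.4, 16.4 and 24.3 CPM in lung ECs and 13.001, 19.5 and 18.7 CPM in lung fibroblasts. In heart cells Kif11 had 8.17, 9.05 and 7.68 CPM in heart iECs, 13.5, 13.9 and 15.6 CPM in heart ECs and 0.940, 2.26 and 1.45 CPM in heart fibroblasts. The lung groups overlapped and Kif11 rose in heart iECs against fibroblasts by 2.41 ± 0.288 (edgeR adjusted p = 1.92e-06). The kinesins Kif15 and Kif2c and the microtubule bundling gene Nusap1 rose in heart iECs over fibroblasts by 1.58 to 2.02 and were not called in lung iECs.

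Of the genes of the central spindle and cytokinesis, Anln, which encodes the contractile ring scaffold anillin, had 75.1, 82.4 and 52.01 CPM in lung iECs, 51.7, 47.01 and 72.7 CPM in lung ECs and 63.97, 67.7 and 72.99 CPM in lung fibroblasts. In heart cells Anln had 43.2, 36.6 and 42.2 CPM in heart iECs, 46.2, 55.3 and 52.5 CPM in heart ECs and 13.2, 16.005 and 13.5 CPM in heart fibroblasts. The heart iEC libraries were below the heart EC libraries, but the change of -0.34 ± 0.164 (edgeR adjusted p = 0.102) did not pass the test. Anln passed it, as a lower level in heart iECs, without lung EC replicate 3, without lung iEC replicate 3 and with the heart iEC and EC libraries alone. Prc1, which cross-links the central spindle, had 40.2, 37.3 and 29.1 CPM in lung iECs, 36.5, 26.9 and 36.8 CPM in lung ECs and 34.4, 28.4 and 32.9 CPM in lung fibroblasts. In heart cells Prc1 had 17.3, 17.7 and 16.4 CPM in heart iECs, 31.96, 30.3 and 31.3 CPM in heart ECs and 3.97, 3.84 and 4.66 CPM in heart fibroblasts. The lung groups overlapped for Anln and Prc1. Prc1 rose in heart iECs against fibroblasts by 2.04 ± 0.148 (edgeR adjusted p = 1.72e-09). Kif20a, Kif23 and Ect2, which move and activate the cytokinesis machinery, rose there by 1.71 to 2.44, and 0 of the 5 genes of this role were called in lung iECs or lung ECs against lung fibroblasts.

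Top2a, which encodes the topoisomerase that untangles sister chromatids, and Mki67, which encodes the chromosome coat protein Ki-67, are widely used as markers of dividing cells. Top2a had 98.7, 97.1 and 73.2 CPM in lung iECs, 83.3, 76.4 and 89.7 CPM in lung ECs and 78.7, 80.3 and 81.1 CPM in lung fibroblasts. In heart cells Top2a had 41.2, 42.2 and 44.4 CPM in heart iECs, 67.9, 71.98 and 76.9 CPM in heart ECs and 9.66, 9.48 and 8.47 CPM in heart fibroblasts. Its lung groups overlapped, and its change in heart iECs against fibroblasts was 2.21 ± 0.108 (edgeR adjusted p = 7.39e-12). Mki67, at chr7:135689784-135716361, had 70.7, 59.6 and 45.5 CPM in lung iECs, 108, 91.2 and 106 CPM in lung ECs and 50.2, 52.2 and 53.3 CPM in lung fibroblasts. In heart cells Mki67 had 24.4, 22.5 and 22.8 CPM in heart iECs, 34.8, 42.9 and 42.8 CPM in heart ECs and 2.35, 3.21 and 4.05 CPM in heart fibroblasts. The lung EC libraries were above all others of the series. Mki67 changed by 0.97 ± 0.139 (edgeR adjusted p = 1.11e-05) in lung ECs against lung fibroblasts, while Top2a changed by 0.05 ± 0.0958 (edgeR adjusted p = 0.647). Mki67 took 13.9% of the summed level in lung ECs and between 3.49% and 7.82% in the other groups. Macrophage and leukocyte markers (16 of 16), epithelial markers (5 of 5 tested) and contractile markers (5 of 7, with 1 lower) were also higher in lung ECs than in lung fibroblasts, and mesothelial markers were higher for 2 of 10 and lower for 5. The first summed to 9371.1 to 11286 CPM in lung ECs and 1357.4 to 1720.2 CPM in lung fibroblasts, and the second to 164.2 to 183.9 CPM in lung ECs and 4.52 to 6.23 CPM in lung fibroblasts. Their part in the Mki67 difference was not tested.

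A list of 46 further mitosis genes, such as shugoshins and outer kinetochore genes, was set beside the 32, also with earlier results known. Against fibroblasts of the same organ, 40 of these rose and 1 fell in heart iECs, with a median of 1.56, while 8 rose and 2 fell in lung iECs, with a median of 0.01. Over all genes tested, 26.0% rose and 24.6% fell in heart iECs, and 25.9% rose and 24.7% fell in lung iECs. In lung ECs against lung fibroblasts 5 were higher and 2 lower (background 29.3% higher and 28.7% lower). In heart ECs against heart fibroblasts 42 were higher and 0 lower (background 24.2% higher and 23.3% lower). Heart iECs were below heart ECs for 36 and above for 0 (background 24.4% lower and 24.5% higher). In heart iECs the spindle pole gene Aspm changed by 2.26 ± 0.282 over fibroblasts, the shugoshin Sgo2a by 2.19 ± 0.232 and the spindle gene Ckap2l by 2.09 ± 0.209, while Wee1, the kinase that holds Cdk1 inactive, changed by -0.38 ± 0.134. In lung iECs Gtse1, a microtubule-binding gene of G2, was higher by 1.03 ± 0.106 and the checkpoint gene Mad2l1 by 0.81 ± 0.112, whereas the Cdk1-activating phosphatase Cdc25b changed by -0.93 ± 0.201 and the kinetochore gene Spc24 by -0.62 ± 0.223.

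Of 13 condensin and cohesin genes 9 rose and 1 fell in heart iECs against heart fibroblasts, with the condensin gene Ncaph at 2.16 ± 0.149 and Smc2 at 1.41 ± 0.114 and with Smc4 at -0.28 ± 0.103. In lung iECs 2 rose and 3 fell. Of 14 APC/C genes, which include the alternative activator Fzr1, 2 rose and 2 fell in heart iECs and 1 rose and 5 fell in lung iECs, against fibroblasts of the same organ. Of all genes tested, 26.0% rose and 24.6% fell in heart iECs and 25.9% rose and 24.7% fell in lung iECs, which is the background for these counts. The APC/C subunit Anapc4 rose by 0.76 ± 0.0591 in heart iECs, and the E2 enzyme Ube2s rose by 0.68 ± 0.112 in lung iECs and by 0.73 ± 0.113 in heart iECs.

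Of the 35 S phase genes, 23 rose and 0 fell in heart iECs against heart fibroblasts, with a median of 0.51, and 9 rose and 1 fell in lung iECs against lung fibroblasts, with a median of 0.10. Over all genes tested, 26.0% rose and 24.6% fell in heart iECs, and 25.9% rose and 24.7% fell in lung iECs. The 9 that rose in lung iECs are near that share. In lung ECs against lung fibroblasts 18 were higher and 2 lower, with a median of 0.38 (background 29.3% higher and 28.7% lower). In heart ECs against heart fibroblasts 33 were higher and 0 lower, with a median of 1.22 (background 24.2% higher and 23.3% lower). The replication helicase gene Mcm5 changed by 0.88 ± 0.137 in lung iECs and 2.31 ± 0.172 in heart iECs, and the flap endonuclease gene Fen1 by 0.99 ± 0.135 in lung iECs. Heart iECs were below heart ECs for 29 and above for 1, Pola1, which encodes the catalytic subunit of DNA polymerase alpha (background 24.4% lower and 24.5% higher). Lung iECs were below lung ECs for 14 of the S phase genes and above for 1, beside 23.0% lower and 22.2% higher over all genes tested.

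Among 19 regulators of G2/M transcription, 8 rose and 4 fell in heart iECs against heart fibroblasts, and 3 rose and 3 fell in lung iECs against lung fibroblasts. The background was 26.0% higher and 24.6% lower in heart iECs, and 25.9% higher and 24.7% lower in lung iECs. Rb1, the retinoblastoma gene that holds back cell cycle genes, was higher in iECs of both organs. It averaged 80.7 ± 7.39 CPM in lung iECs, 34.7 ± 3.60 in lung ECs and 26.8 ± 6.70 in lung fibroblasts (SD, n = 3 each). In the heart Rb1 averaged 109.8 ± 7.10 CPM in iECs, 27.9 ± 1.14 in ECs and 26.5 ± 2.99 in fibroblasts (SD, n = 3 each). Its iEC libraries lay above all EC and fibroblast libraries of the same organ, with changes against fibroblasts of 1.59 ± 0.141 (edgeR adjusted p = 3.79e-08) in lung iECs and 2.05 ± 0.142 (edgeR adjusted p = 1.36e-09) in heart iECs. Foxm1, which activates mitosis genes in G2, averaged 31.8 ± 2.81 CPM in lung iECs, 20.8 ± 4.74 in lung ECs and 19.7 ± 1.25 in lung fibroblasts (SD, n = 3 each). In the heart Foxm1 averaged 15.25 ± 1.11 CPM in iECs, 15.4 ± 0.779 in ECs and 4.21 ± 0.468 in fibroblasts (SD, n = 3 each). Foxm1 changed by 0.69 ± 0.128 (edgeR adjusted p = 1.84e-04) in lung iECs and 1.85 ± 0.147 (edgeR adjusted p = 6.01e-09) in heart iECs against fibroblasts. Mybl2, which encodes B-Myb, rose in heart iECs over heart fibroblasts by 1.96 ± 0.306, and was not called in lung iECs (0.41 ± 0.235). E2f6, a repressor of the E2F family, changed by -0.82 ± 0.0951 in lung iECs and -0.92 ± 0.0972 in heart iECs.

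Of 5 G1 cyclins and kinases, 3 were higher and 0 lower in iECs of each organ than in fibroblasts. Ccnd2, which encodes cyclin D2, changed by 1.03 ± 0.105 in lung iECs and 1.11 ± 0.105 in heart iECs. Of 7 CDK inhibitors, 1 rose and 2 fell in lung iECs, and 1 rose and 3 fell in heart iECs. For both lists the background was 25.9% higher and 24.7% lower in lung iECs, and 26.0% higher and 24.6% lower in heart iECs. Cdkn1b, which encodes p27, averaged 49.3 CPM in lung iECs, 28.6 in lung ECs and 87.9 in lung fibroblasts. In the heart Cdkn1b averaged 73.6 CPM in iECs, 40.9 in ECs and 95.7 in fibroblasts. Against fibroblasts Cdkn1b changed by -0.83 ± 0.0984 in lung iECs and by -0.38 ± 0.0973 in heart iECs, while Cdkn1a, which encodes p21, was higher by 0.48 ± 0.0727 and 0.29 ± 0.0726 in the same comparisons.

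Some mitosis genes share sequence with other genes, which could move counts between them. Of the 32 genes, 28 shared at least 1 word of 31 bases with another gene of the annotation, and 12 shared over 5% of their words. The shares were 27.8% for Ccnb1, mostly with a pseudogene that had 1 count over all libraries, 26.7% for Cdc20, mostly with a pseudogene that had 0 counts, and 18.7% for Plk1, whose pseudogene had 267 counts. Exons of 8 genes overlapped a gene on the opposite strand, most of all Kif20a, with 29.3% of its exon bases in Cdc23, and Ube2c, with 22.8% in Tnnc2, which had 14 counts in all. Whether counting used strand is not given in the sources used here, so values of Kif20a and of Ccna2, which overlaps Exosc9 over 12.5% of its exon bases, are uncertain. The same doubt holds for smaller overlaps. Cdc20 overlaps Elovl1, which had 33731 counts, over 2.84% of its exon bases. Cdca8 overlaps 9930104L06Rik, which had 4668 counts, over 4.48%.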

How the data were processed

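The deposited table holds expected counts (estimated counts per gene) as whole numbers, 1 column for each of 18 libraries, with 0 columns left unused. Salmon, DESeq2 and mm10 are named in the submitters' processing notes, without versions or roles. How transcripts were summed to genes is not given in the sources used here. Symbols and positions came from GENCODE M21 (GRCm38), and promoters from RefSeq (GRCm38.p6).

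The models were run with edgeR 4.0.16 under R 4.3.3. Genes were filtered with filterByExpr, scaled with TMM and fitted with a robust quasi-likelihood model over all 18 libraries, with 1 coefficient per group and 12 residual degrees of freedom. Calls were made at a Benjamini-Hochberg adjusted p under 0.05 over 14864 genes within each of 11 comparisons. The SE, given after ± beside a log2 change, is the absolute change divided by the square root of F. The main edgeR model and DESeq2 were tried on simulated counts, drawn from gene shares over all libraries with the same spread for every gene. Known changes were put into the heart iEC libraries, and only heart iECs against heart fibroblasts was tested. The organ differences and the other alternatives were not tried on simulated counts.

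Genes and lists were chosen with earlier results of these data known. The 2 members with the highest mean CPM in each of 7 roles were given per library, and others by range, or by value where they went against the rest, lost a call or differed between organs. From other lists, up to 3 called genes with the largest change among those with at least 5 CPM were eligible, and any called against its list. Mybl2 and the Cdkn1b and Foxm1 levels were added for their role, after their values were seen. As alternatives, RLE scaling, DESeq2 1.42.0, a fit of unfiltered genes, at least 5 CPM in 3 libraries, the compared groups alone, a replicate block and leaving out each library were tried.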

Additional observations from a re-analysis of the deposited data

Results flagged for a closer look

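Changes against fibroblasts that differed between lung and heart in edgeR's test of the difference were singled out. Groups of 3 libraries are too small for a check of outlying libraries.

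The iEC to fibroblast change was smaller in lung for 31 of the 32 mitosis genes. The difference, lung minus heart on the log2 scale, was -1.07 ± 0.182 (edgeR adjusted p = 2.58e-04) for Cdk1, -2.18 ± 0.367 (edgeR adjusted p = 2.40e-04) for Cdca8, -1.64 ± 0.182 (edgeR adjusted p = 3.05e-06) for Cenpe and -1.99 ± 0.198 (edgeR adjusted p = 9.02e-07) for Cdc20. It was -1.42 ± 0.158 for Tpx2, -1.48 ± 0.237 for Anln, -2.04 ± 0.144 for Top2a and -2.69 ± 0.226 for Mki67. The largest was -3.43 ± 0.414 for Pbk. Bub1b, at -0.29 ± 0.229, did not pass the test.

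The EC to fibroblast change was smaller in lung for all 32. The difference was -1.97 ± 0.181 for Cdk1, -2.58 ± 0.362 for Cdca8, -2.73 ± 0.181 for Cenpe, -2.38 ± 0.201 for Cdc20 and -2.51 ± 0.159 for Tpx2. It was -2.11 ± 0.238 for Anln, -2.92 ± 0.144 for Top2a, -2.69 ± 0.224 for Mki67 and -4.84 ± 0.399 for Pbk. The smallest, for Bub1b, was -0.96 ± 0.224. Both sets of differences rest on the same lung and heart fibroblast libraries.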

How the results depend on the processing

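Over 11 comparisons, the 352 values of single mitosis genes were recomputed under 24 alternatives each, 8448 values in all. Of these, 30 lost a call, 34 gained one and 0 called values changed direction, while 101 uncalled values changed sign and stayed uncalled. The changes touched 26 of the 352 values. With a replicate block 351 of the 352 calls kept their side of the threshold: Ube2c lost its call in lung ECs against lung fibroblasts, where 2 genes were then higher in place of 3. Same-numbered replicates did not deviate together in every pair of any comparison (correlations of -0.398 to 0.117). These correlations cannot show whether same-numbered libraries share a culture or animal, and the labels do not say. The main model treated the libraries as unpaired. With DESeq2 5 genes were higher in lung ECs than in lung fibroblasts in place of 3. Leaving out each library in turn gave 4 to 7 genes higher in lung iECs over lung fibroblasts, and 2 to 5 higher and 0 to 1 lower in lung ECs than in lung fibroblasts. It gave 2 to 4 higher and 1 to 3 lower in lung iECs than in lung ECs. Ndc80, Bub1 and Kif23 each lost the call of a lower level in heart iECs than in heart ECs when certain libraries were left out, where the count ranged from 25 to 28. Ndc80 also lost its call in lung iECs against heart iECs, and in lung ECs against heart ECs Kif2c lost its call under 7 alternatives and Cdca8 and Kif23 under 1 each. The summed level in heart fibroblasts was 81.9 CPM on unscaled library totals, against 92.0 CPM after TMM scaling. On unscaled totals the sums of lung iECs and of lung ECs no longer overlapped those of lung fibroblasts. Unscaled totals moved the median of all genes by up to 0.19 on the log2 scale, and RLE by up to 0.03. Depth limits the heart fibroblast values, where a mitosis gene had 5 to 304 counts in a library. Intervals from counting error would be too narrow, because PCR copies of a molecule may be counted as separate reads. The cause of these changes of call was not tested.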
